A study of Mus musculus with 2 samples.

Results

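The cells described here are Lag3-high Foxp3-negative CD4 T cells of the pancreatic infiltrate in female mice of the NOD/ShiLtJ strain, which develop autoimmune diabetes spontaneously. CD45.1+ cells, CD45.1 being the form of the pan-leukocyte surface protein that this strain carries, had been purified by flow cytometry at 7 or at 12 weeks of age. They were captured on the 10x Genomics Chromium platform with the 3' chemistry, as 1 library per age. The labels name no treatment or genetic change, and they do not say how many mice each library holds. A barcode, hereafter a cell, was a member when it held at least 2 unique molecular identifiers (UMIs) of Cd3d, Cd3e and Cd3g together, at least 1 of Cd4, none of Cd8a, Cd8b1 or Foxp3, at most 1 of Cd79a, fewer than 4 over 7 cell cycle genes and at least 3 of Lag3. The rule found 83 members at 7 weeks and 169 at 12 weeks, 252 of 3913 cells in all. Because the cells were chosen by their own Lag3 and Foxp3 UMIs, their levels of these genes are the rule itself. All comparisons below are descriptions without a test.

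LAG-3 is an inhibitory receptor that binds MHC class II and is displayed by T cells after activation. Foxp3 is the transcription factor that defines regulatory T cells. The rule asks that no Foxp3 UMI was counted, which does not by itself place a cell outside that lineage. CD4 T cells that express LAG-3 and make interleukin-10 without Foxp3 are known as type 1 regulatory (Tr1) cells. Interleukin-10 restrains antigen-presenting cells, interleukin-21 helps B cells and sustains CD8 T cells, and interferon-gamma activates macrophages and raises MHC expression. In the NOD pancreas, CD4 T cells that recognise islet antigens are part of the infiltrate that precedes diabetes.

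The 2 libraries held 8701184 UMIs in 1113 barcodes at 7 weeks and 19288252 UMIs in 2812 barcodes at 12 weeks. Only 2 kept barcodes were found in both libraries, and 1 of them belonged to a member. Members were deeper than the other Foxp3-negative CD4 T cells of the same gate, which held at most 2 Lag3 UMIs. The median depth of members was 6834 UMIs at 7 weeks and 5043 at 12 weeks, against 5238 and 4420 in the 201 and 539 other CD4 T cells. A floor on raw UMIs favours deep cells, so values are given as UMIs in every 1000000 of the summed class (CPM) and, for shares of cells, after each cell had been thinned to 2000 UMIs. No cell of these classes held fewer than 2000 UMIs. Intervals are 95% and cover counting error alone. They treat each UMI as independent, and where a few cells hold most UMIs of a gene they are too narrow. Differences between mice cannot be measured with 1 library per age.

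Some barcodes of the gate also held transcripts of other cell types. Summed over the 34 genes of the B cell, macrophage and monocyte, and dendritic cell lists, 10 of 83 members at 7 weeks and 14 of 169 at 12 weeks held 10 or more UMIs, with a maximum of 647 and 956 in 1 cell. The same was true of 17 of 201 and 17 of 539 other CD4 T cells. The summed level of the 12 B cell markers was 1998 CPM in members and 3952 CPM in other CD4 T cells at 7 weeks, and 718 and 732 CPM at 12 weeks. The summed level of the 12 macrophage and monocyte markers was 491 and 1448 CPM at 7 weeks, and 993 and 653 CPM at 12 weeks. The summed level of the 10 dendritic cell markers was 103 CPM in members and 49.9 CPM in other CD4 T cells at 7 weeks, and 4.86 and 11.1 CPM at 12 weeks. Of these genes, Xcr1 and Clec9a were at 0 in members of both libraries. Such barcodes were kept in the values below. Leaving them out moved 19 of 122 ratios of the 61 genes counted or ranked against other CD4 T cells by more than 1.5 times, 14 of 56 between the ages, and 27 of 88 against Foxp3-positive cells, and where such a ratio is printed below, its value without these barcodes is given too.

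Members made up 29.2% of Foxp3-negative CD4 T cells at 7 weeks (exact interval 24.0 to 34.9%) and 23.9% at 12 weeks (20.8 to 27.2%). The 12 week share was 0.817 times the 7 week share, with an interval of 0.624 to 1.08 that includes 1. Of all kept cells, members were 7.48% and 6.03%. The typical member held 6 Lag3 UMIs at 7 weeks and 7 at 12 weeks, and the highest held 32 and 49.

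Il10 (chromosome 1, 131019845 to 131024974, plus strand; positions are on mm10 from GENCODE vM21) was detected in a minority of members. At 7 weeks 13 of 83 members held 70 Il10 UMIs, and at 12 weeks 34 of 169 members held 152. The remaining 70 and 135 members had none. Output was uneven among the cells with Il10. In the 7 week library 5 cells with 5 or more UMIs held 28, 11, 7, 6 and 5 of them, and in the 12 week library 9 such cells held between 5 and 25 each. The 2 richest cells at 7 weeks and the 6 richest at 12 weeks held at least as many Il10 UMIs as all remaining members of their library.

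Among other Foxp3-negative CD4 T cells Il10 was rare. It had 5 UMIs in 5 of 201 cells at 7 weeks and 14 UMIs in 8 of 539 cells at 12 weeks, 7 of these in 1 cell. The member level was 103 CPM (80.2 to 130) against 4.03 CPM at 7 weeks, a ratio of 25.5 (10.4 to 81.1). In the 12 week library it was 148 CPM (125 to 173) against 5.16 CPM, 28.6 times as high (16.6 to 53.6). Members thus held 93.3% and 91.6% of the Il10 UMIs of Foxp3-negative CD4 T cells while making up 29.2% and 23.9% of these cells. After thinning to 2000 UMIs, 7.23% of members at 7 weeks and 12.4% at 12 weeks still had an Il10 UMI. The thinned shares in other CD4 T cells were 0.498% and 0.557%, and those in B cells, a type that should lack most T cell transcripts, were 1.74% and 0.407% (median depths 4968 and 4606.5 UMIs). The 7 week share in B cells was above that in other CD4 T cells, so B cells are not taken as a background level for Il10.

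Il21 (chromosome 3, 37222759 to 37232636, minus strand), the gene of interleukin-21, was found in more members than Il10 and in smaller amounts per cell. It had 61 UMIs in 35 of 83 members at 7 weeks and 129 UMIs in 68 of 169 at 12 weeks, with at most 6 and 15 in 1 cell. The level was 89.6 CPM (68.6 to 115) against 20.1 CPM in other CD4 T cells at 7 weeks, a ratio of 4.45 (2.75 to 7.40). In the 12 week library it was 125 CPM (105 to 149) against 19.5 CPM, 6.42 times as high (4.63 to 9.01). Members held 70.9% of the Il21 UMIs of Foxp3-negative CD4 T cells in each library. After thinning, 15.7% and 20.1% of members had an Il21 UMI, against 4.48% and 2.97% of other CD4 T cells and 0 of 115 and 0 of 492 B cells.

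Ifng (chromosome 10, 118441046 to 118445892, plus strand), the gene of interferon-gamma, was the most often detected of these cytokine genes. It had 233 UMIs in 40 of 83 members at 7 weeks, 59 of them in 1 cell, and 295 UMIs in 83 of 169 members at 12 weeks, at most 37 in 1 cell. Members of the 7 week library had 342 CPM (300 to 389) against 95.9 CPM in other CD4 T cells, 3.57 times as high (2.85 to 4.49). Those of the 12 week library had 287 CPM (255 to 321) against 62.3 CPM, 4.60 times as high (3.80 to 5.60). Unlike Il10, Ifng was common outside the members, in 60 of 201 and 88 of 539 other CD4 T cells. After thinning it was present in 33.7% and 30.8% of members, 13.4% and 8.91% of other CD4 T cells, and 4.35% and 1.22% of B cells.

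**Figure D1:**
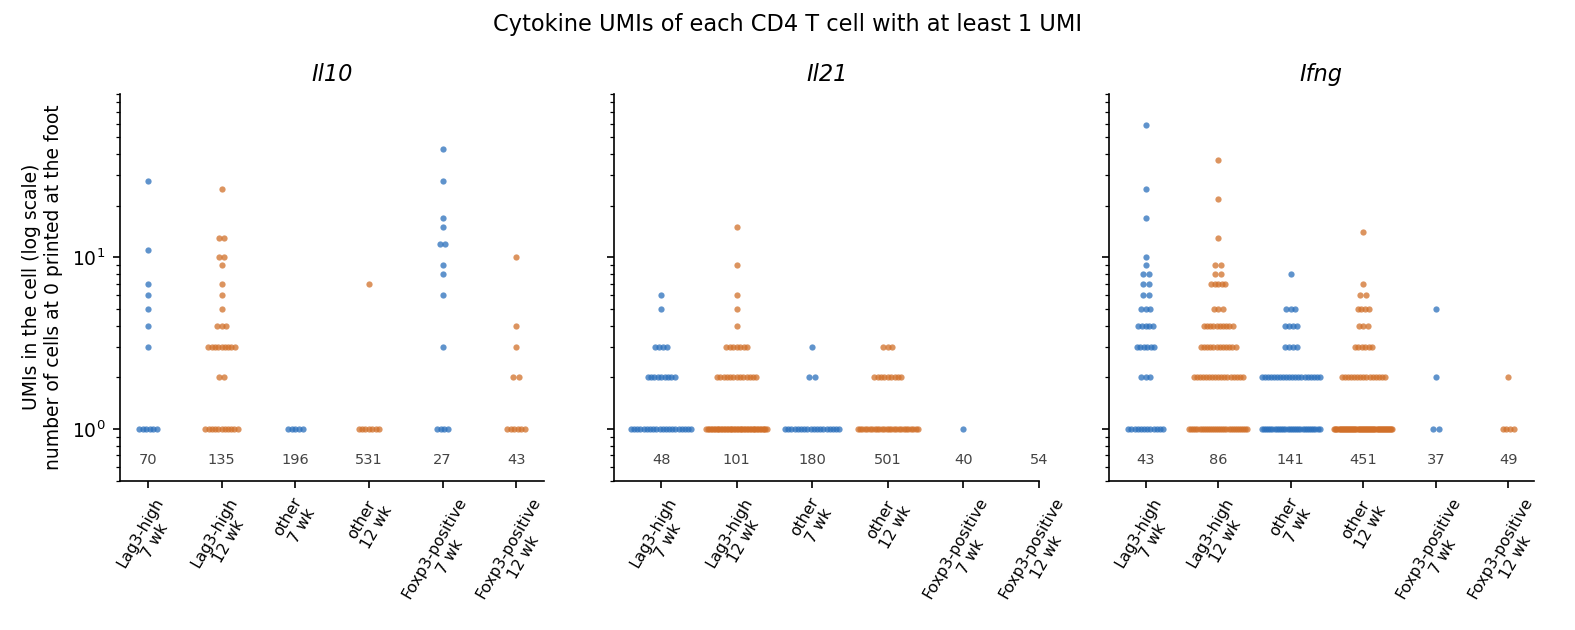
UMIs of Il10, Il21 and Ifng in each CD4 T cell that held at least 1 (log scale), by class and library, with the number of cells at 0 printed at the foot of each column. Il10 was spread over 13 and 34 members with up to 28 and 25 UMIs, and Foxp3-positive cells held Il10 while Il21 was at 1 and 0 UMIs there.

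Other cytokines separated less cleanly. Ltb, the gene of lymphotoxin-beta, was found in 80 of 83 and 160 of 169 members and stood at 1.04 times (0.944 to 1.14) and 1.09 times (1.02 to 1.17) the level of other CD4 T cells. Tnf had 48 and 34 UMIs in members, at 2.08 times (1.35 to 3.23) and 1.72 times (1.09 to 2.71) the level of other CD4 T cells. Tgfb1 had 155 and 175 UMIs and stood at 1.63 times (1.31 to 2.04) and 1.92 times (1.57 to 2.34). Neither passed 2-fold in both libraries. Il2, the T cell growth factor, had 13 UMIs at 7 weeks and 50 at 12 weeks, 32 of the latter in 1 cell. Il4 had 0 and 5 UMIs and Il17a none in either library. With 3 cells taken as the limit of a count of 0, that allows a share of cells with an Il17a UMI of up to 3.61% at 7 weeks and 1.78% at 12 weeks (exact upper limits 4.35% and 2.16%). Il17a, the cytokine of Th17 cells, was thus not detected at this depth, and Il4, that of Th2 cells, was close to it.

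The bases that precede the start sites of Il21 and Ifng are shown because they are the members' cytokine genes described above that the RefSeq table used holds. Of Il10, Il21, Ifng, Ccl3 and Ccl4, 3 matched there by symbol (Il21, Ifng and Ccl3). Each line gives the 150 bases before the start, 5′ to 3′ on the gene's strand, on GRCm38.p6, with capitals marking matches on either strand of GGAAA, the core recognised by NFAT, a factor activated by T cell receptor signalling.
Il21, chr3:37232637-37232786, minus strand: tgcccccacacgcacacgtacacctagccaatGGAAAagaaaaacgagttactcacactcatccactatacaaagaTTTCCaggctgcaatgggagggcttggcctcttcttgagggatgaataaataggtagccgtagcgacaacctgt
Ifng, chr10:118440896-118441045, plus strand: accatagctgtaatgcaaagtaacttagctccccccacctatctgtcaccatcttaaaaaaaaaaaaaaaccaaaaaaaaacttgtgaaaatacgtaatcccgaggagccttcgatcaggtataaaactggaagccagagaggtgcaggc
The Il21 window held 2 matches and the Ifng window 0. Of 32851 windows of the same length before RefSeq starts, 37.6% held the motif. TGANTCA, the AP-1 site, was in neither window and in 4.24% of all windows. A match is a description of letters and not of binding.

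The 3 cytokine genes overlapped only in part among the members. At 7 weeks 22 of 83 members had none of Il10, Il21 and Ifng, 22 had Ifng alone, 13 Il21 alone, 4 Il10 alone, and 13 had Il21 with Ifng. The same 5 combinations at 12 weeks had 35, 45, 27, 19 and 28 of 169 members. All 3 genes were detected together in 5 and 8 members, and Il10 with Ifng but without Il21 in 0 and 2. Among other CD4 T cells 130 of 201 and 418 of 539 had none of the 3.

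The overlap of Il10 with Il21 differed between the libraries in its point values, with intervals that overlapped. Il21 was detected in 9 of 13 members with Il10 (69.2%, interval 38.6 to 90.9%) and in 26 of 70 without it (37.1%, 25.9 to 49.5%) at 7 weeks. At 12 weeks the counts were 13 of 34 (38.2%, 22.2 to 56.4%) and 55 of 135 (40.7%, 32.4 to 49.5%). Ifng was detected in 5 of 13 members with Il10 against 35 of 70 without at 7 weeks, and in 10 of 34 against 73 of 135 at 12 weeks. The median depth of members with and without Il10 was 5926 and 7114.5 UMIs at 7 weeks and 5963.5 and 4950 at 12 weeks. Across members, Spearman's rho was taken on each gene's share of the cell's UMIs. Between Il10 and Il21 it was 0.28 at 7 weeks (n = 83) and -0.01 at 12 weeks (n = 169). Between Il10 and Ifng it was -0.13 and -0.14, and between Il21 and Ifng 0.03 and 0.09. The points share a library and the counts are sparse, so these coefficients are given as description.

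**Figure D2:**
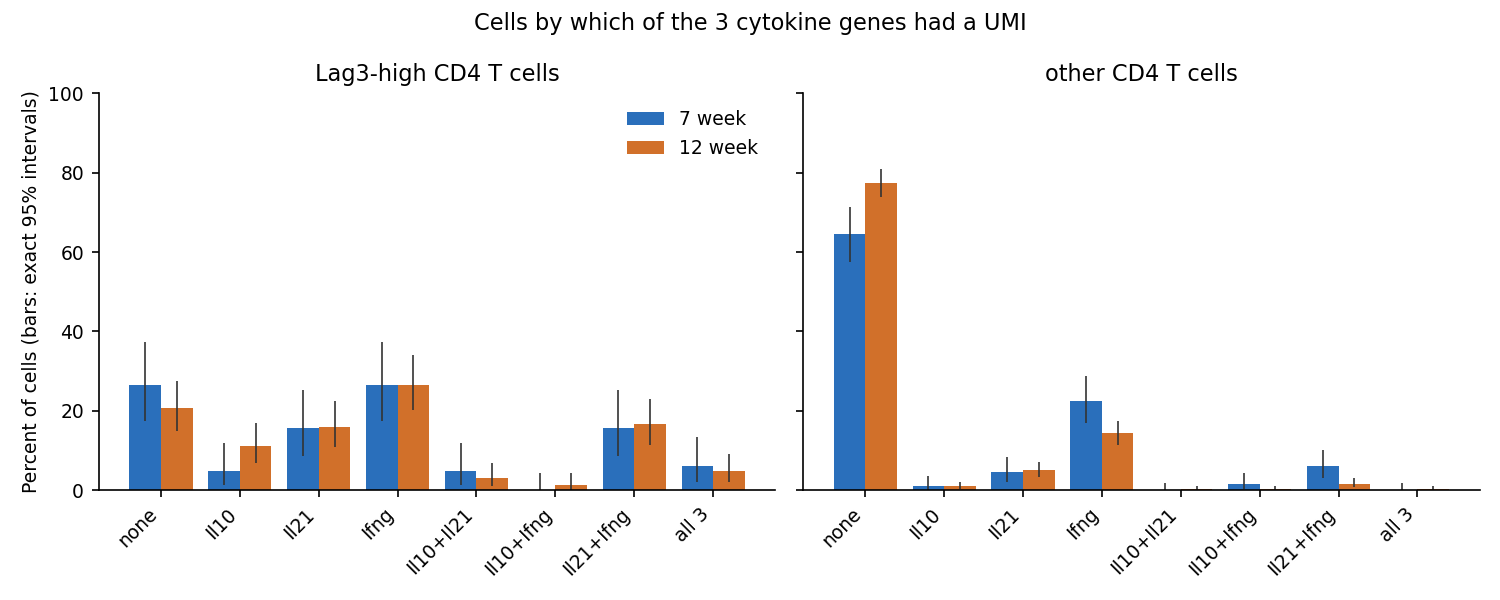
Percent of members (left) and of other Foxp3-negative CD4 T cells (right) in which the named combination of Il10, Il21 and Ifng had a UMI, for the 7 week and 12 week libraries, with exact 95% binomial intervals. Cells with none of the 3 were 22 of 83 and 35 of 169 members and 130 of 201 and 418 of 539 other cells.

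The floor of 3 Lag3 UMIs does not separate cells with these cytokines from cells without. Just outside it, the 23 and 44 cells with 2 Lag3 UMIs had Il10 at 13.3 and 31.7 CPM, Il21 at 46.5 and 49.4 CPM and Ifng at 173 and 88.2 CPM. Just inside, the 19 and 30 cells with 3 Lag3 UMIs had Il10 at 58.0 and 59.6 CPM, Il21 at 50.7 and 89.4 CPM and Ifng at 196 and 203 CPM. The Il10 levels rest on few cells. Outside they came from 2 UMIs in 2 cells and 9 UMIs in 3 cells, 7 of the 9 in 1 cell. Inside they came from 8 UMIs in 2 cells and 10 UMIs in 4 cells. The Il10 intervals were 1.61 to 48.0 and 14.5 to 60.3 CPM outside, and 25.0 to 114 and 28.6 to 110 CPM inside. In the 13 and 59 cells with 10 or more Lag3 UMIs, Il10 was at 171 and 243 CPM and Il21 at 171 and 152 CPM. The classes between did not follow one order. The 8 and 21 cells with 4 Lag3 UMIs had Il10 at 0 and 133 CPM and Il21 at 115 and 159 CPM, and the 43 and 59 cells with 5 to 9 had Il10 at 116 and 92.9 CPM and Il21 at 75.6 and 104 CPM. Il21 was already at 49.7 and 57.4 CPM in cells with a single Lag3 UMI, against 7.06 and 8.31 CPM in those with 0, whereas Il10 stayed at 0 and 2.61 CPM with a single Lag3 UMI. Maf, a transcription factor that activates Il10 and Il21, was at 106 and 78.7 CPM at 0 Lag3 UMIs, at 428 and 558 CPM at 4, at 243 and 476 CPM at 5 to 9 and at 583 and 657 CPM at 10 or more.

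**Figure D3:**
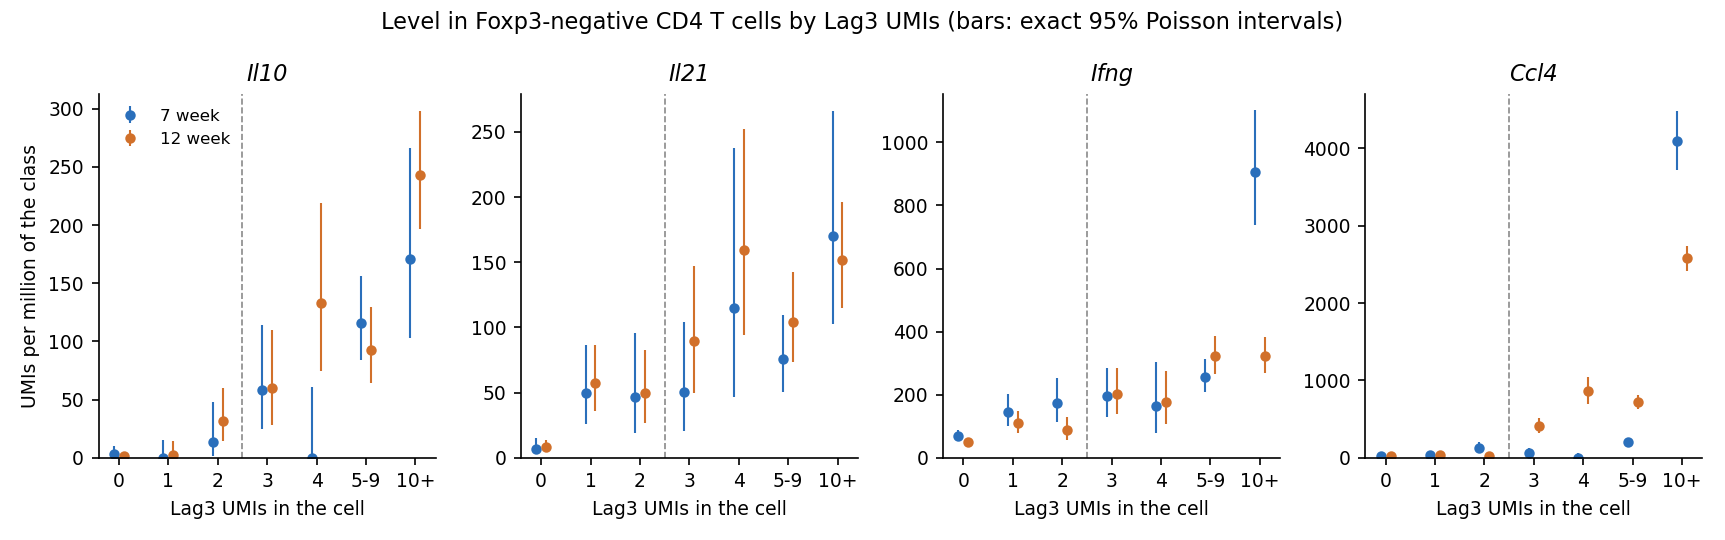
Level (CPM, UMIs in every 1000000 of the class) of Il10, Il21, Ifng and Ccl4 in Foxp3-negative CD4 T cells grouped by their Lag3 UMIs, with exact 95% Poisson intervals. The dashed line marks the floor of 3 UMIs, and the 7 week point of Ccl4 at 10 or more Lag3 UMIs (4093 CPM) rests mainly on 1 cell with 450 UMIs.

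Beyond the cytokines, members differed from other Foxp3-negative CD4 T cells in chemokines, inhibitory receptors, Il10 regulators and genes of the naive state. A gene was counted as higher or lower when it was past 2-fold in the same direction in both libraries with both intervals excluding 1, among genes with at least 30 UMIs. By that rule 104 of 8437 genes were higher in members (1.23%) and 56 were lower (0.664%). With TMM scaling, which lowers every ratio by 0.09 log2 units at 7 weeks and 0.21 at 12 weeks, 68 were higher and 79 lower, and with cells thinned to 2000 UMIs 24 were lower. The median log2 ratio over all genes was 0.07 at 7 weeks and 0.16 at 12 weeks. The list genes were chosen with results of these data known.

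Cytokine and chemokine genes were among the higher genes, and Il10 ranked first. Of 18 measured cytokine and chemokine genes 8 were higher (Il10, Il21, Ifng, Csf1, Cxcl13, Ccl1, Ccl3 and Ccl4) and none lower, with a median log2 ratio of 0.88 and 2.06. Ccl3 and Ccl4 encode chemokines that attract T cells and macrophages. Ccl4 had 542 and 1415 UMIs in members against 52 and 68 in other CD4 T cells, ratios of 19.0 and 54.9. The 7 week value depended on 1 member, which held 450 of the Ccl4 UMIs, 176 of the 195 Ccl3 UMIs and 59 of the Ifng UMIs, and 32 Lag3 UMIs, the most of any member at that age. Without the top cell of each group the 7 week ratio was 3.92 for Ccl4 and 1.84 for Ccl3, while at 12 weeks the ratios stayed at 45.7 and 35.8. Ccl4 was detected in 19 of 83 and 54 of 169 members, 14.9% and 10.4% of other CD4 T cells and 12.2% and 9.76% of B cells. The share in other CD4 T cells was thus near that in B cells.

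Single cells also carried Ccl1 and Cxcl13. All 59 Ccl1 UMIs of the 7 week members were in 1 cell, and 47 of 62 at 12 weeks. That 7 week cell was among the barcodes with 10 or more other-cell UMIs, and without these barcodes the counts were 0 in members and 18 in other CD4 T cells. Of the 72 Cxcl13 UMIs at 7 weeks 70 were in 1 cell. Cxcl13, which attracts CXCR5+ B cells, had 47 UMIs in 6 members at 12 weeks. Ccl1 and Cxcl13 were thus found in few members. Csf1, the macrophage growth factor, had 13 UMIs in 9 members and 42 in 22, at 2.63 times (1.04 to 6.98) and 4.82 times (2.83 to 8.39) the level of other CD4 T cells, and was not past 2-fold in both libraries with TMM scaling. Its 12 week ratio was 7.28 without the barcodes holding other-cell UMIs.

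The inhibitory receptors held 4 of the higher genes. Of 13 measured, 4 were higher (Havcr2, Ctla4, Cd200 and Nt5e) and none lower, with a median log2 ratio of 0.99 at 7 weeks and 1.41 at 12 weeks. Havcr2, which encodes TIM-3, had 20 UMIs in 10 members against 7 in other CD4 T cells at 7 weeks and 42 UMIs in 19 members against 3 at 12 weeks, ratios of 5.21 (2.12 to 14.6) and 36.9 (11.8 to 186). All 7 of the UMIs in 7 week other CD4 T cells were in barcodes with 10 or more other-cell UMIs, and without these members were at least 12.9-fold higher, taking 3 counts for the group as the floor. Ctla4, which competes with CD28 for its ligands, was at 217 against 62.0 CPM and at 358 against 55.3 CPM. Pdcd1, which encodes PD-1, stood at 372 against 187 CPM (ratio 1.99, 1.66 to 2.39) and 399 against 129 CPM (3.08, 2.67 to 3.56), just short of 2-fold at 7 weeks. Tigit had only 7 and 19 UMIs in members. Nt5e and Cd200 were not past 2-fold in both libraries with TMM scaling.

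Factors that act on Il10 were among the higher genes. Of 15 measured genes of the Il10 regulator and interleukin-27 list 6 were higher (Prdm1, Ahr, Irf4, Nfil3, Ikzf3 and Maf) and none lower, although the list's median log2 ratio was 0.55 and 0.70. Prdm1, which encodes Blimp-1, had 19 UMIs in 14 members against 8 in other CD4 T cells at 7 weeks and 74 in 46 members against 10 at 12 weeks, ratios of 4.33 (1.81 to 11.4) and 19.5 (10.0 to 42.4). Ahr, a ligand-activated factor that partners with Maf on the Il10 promoter, stood at 4.62 times (2.48 to 9.04, or 7.54 without the barcodes holding other-cell UMIs) and 8.26 times (4.54 to 15.9). Irf4 stood at 4.04 times (2.09 to 8.22) and 5.88 times (3.65 to 9.74). Maf was the most abundant of the 6, at 323 against 154 CPM and 531 against 128 CPM (ratios 2.10 and 4.15). With TMM scaling Maf was short of 2-fold at 7 weeks and 5 of the 15 remained. Eomes, which drives Il10 in some Tr1 cells, had 1 and 5 UMIs in members.

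Follicular helper genes, which mark CD4 T cells that help B cells, were mixed. Of 20 measured, 4 were higher (Il21, Rgs16, Angptl2 and Tbc1d4) and 1 lower (Il4ra). Angptl2 stood at 3.28 times (2.60 to 4.16) and 4.12 times (3.33 to 5.13) the level of other CD4 T cells, and Rgs16, a regulator of G protein signalling, at 2.88 and 3.86 times. Cxcr5, the receptor that brings cells into B cell follicles, was at 2.57 times (1.44 to 4.66) at 7 weeks and 1.36 times (0.886 to 2.04) at 12 weeks. Bcl6, the defining transcription factor of follicular helper cells, was at 0.486 times (0.193 to 1.09) and 1.68 times (0.923 to 2.99). The Bcl6 interval included 1 in both libraries.

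Regulatory T cell genes other than Foxp3 were also higher in part. Of 13 measured, 6 were higher (Ctla4, Il2ra, Tnfrsf4, Capg, Socs2 and Nt5e) and none lower, with a median log2 ratio of 1.02 and 2.01. Il2ra, the alpha chain of the interleukin-2 receptor, had 15 UMIs in 7 members and 32 in 19, at 5.47 times (1.89 to 19.2) and 9.38 times (4.37 to 22.3) the other CD4 level, or 8.41 and 21.0 times without the barcodes holding other-cell UMIs. Summed over the 14 listed genes, the level was 1724 and 2639 CPM in members, 859 and 788 CPM in other CD4 T cells, and 5488 and 5630 CPM in Foxp3-positive cells, with Lrrc32 at 0 in members of both libraries. Whether some members were regulatory T cells whose Foxp3 transcripts went uncounted was not tested.

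Genes of the naive and recirculating state were among the lower genes. Of 19 measured, 11 were lower (among them Dapl1, S1pr1, Lef1, Klf3, Txk, Klf2, Igfbp4, Il7r, Satb1 and Rasgrp2) and none higher, with a median log2 ratio of -1.58 at 7 weeks and -2.23 at 12 weeks. Igfbp4 had 23 UMIs in members against 233 in other CD4 T cells at 7 weeks and 3 against 841 at 12 weeks. S1pr1, the receptor that T cells use to leave tissue, was at 0.376 and 0.210 times, and Il7r, the interleukin-7 receptor, at 0.196 (0.108 without the barcodes holding other-cell UMIs) and 0.172 times. Tcf7, which encodes TCF-1, was at 0.888 times (0.740 to 1.06) at 7 weeks and at 0.563 times (0.466 to 0.677) at 12 weeks. The other CD4 T cells include naive-type cells, so these ratios set members against a mixture.

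The remaining lists held few such genes. Of 16 measured costimulatory genes 2 were higher (Tnfrsf1b and Tnfrsf4), of 16 factors induced by T cell receptor signalling or linked to tolerance 3 were higher (Tox, Egr2 and Dusp4), and of 10 tissue residency genes 1 was higher (Crem). Egr2 was at 2.57 times at 7 weeks but at 1.57 times without the barcodes holding other-cell UMIs. Of 17 Th1 genes only Cxcr6 was higher, at 2.02 times (1.55 to 2.63) and 6.28 times (5.25 to 7.55). Tbx21, which encodes T-bet, was at 1.52 times (0.796 to 2.87) and 3.32 times (2.02 to 5.50). Of 9 cytotoxic genes none was higher and Lamp1 was lower, and of 16 type I interferon response genes Usp18 was lower. None of 15 glycolysis genes was counted on either side. No stress and dissociation gene was past 2-fold in both libraries, but 13 of 16 at 7 weeks and 12 of 16 at 12 weeks had intervals wholly below 1, with a median log2 ratio of -0.46 and -0.44. Their summed level was 7377 CPM in members against 9609 CPM in other CD4 T cells at 7 weeks and 5891 against 8391 CPM at 12 weeks, and its part in the other differences was not tested. With TMM scaling Tox, Cxcr6 and Crem were no longer past 2-fold in both libraries, and Dnajb1, a stress gene, and Cd69, a residency gene, were lower.

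Genes outside the lists were named by rank. Neb, the gene of the muscle protein nebulin, had 13 UMIs in 11 members against 2 UMIs in other CD4 T cells at 7 weeks and 35 UMIs in 24 members against 5 at 12 weeks, ratios of 11.9 (2.68 to 108) and 18.5 (7.20 to 60.4). Nrgn, the gene of the calmodulin-binding protein neurogranin, stood at 5.89 times (3.10 to 12.0, or 11.6 without the barcodes holding other-cell UMIs) and 21.8 times (10.4 to 52.5). Sccpdh, Chst11, Gucy2g, Bdh2, Epdr1 and Clip3 completed the 15 highest, with ratios between 4.63 and 18.2 at 7 weeks. On the lower side Dapl1, Pdlim4, Irgc1, Pdlim1, Sgk3, C3, Treml2, Scml4, Nacc2 and Igfbp4 ranked first. Irgc1 had 0 UMIs in members of both libraries against 10 and 39. Neb and Pdlim1 were spread over cells, with at most 4 and 2 UMIs in any member, whereas at 7 weeks no C3 UMI was left in either class, and 0 Ccl1 UMIs in members against 9, when the richest cell of each group was left out. At 12 weeks 76 of the 79 C3 UMIs of other CD4 T cells were in 1 cell.

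**Figure D4:**
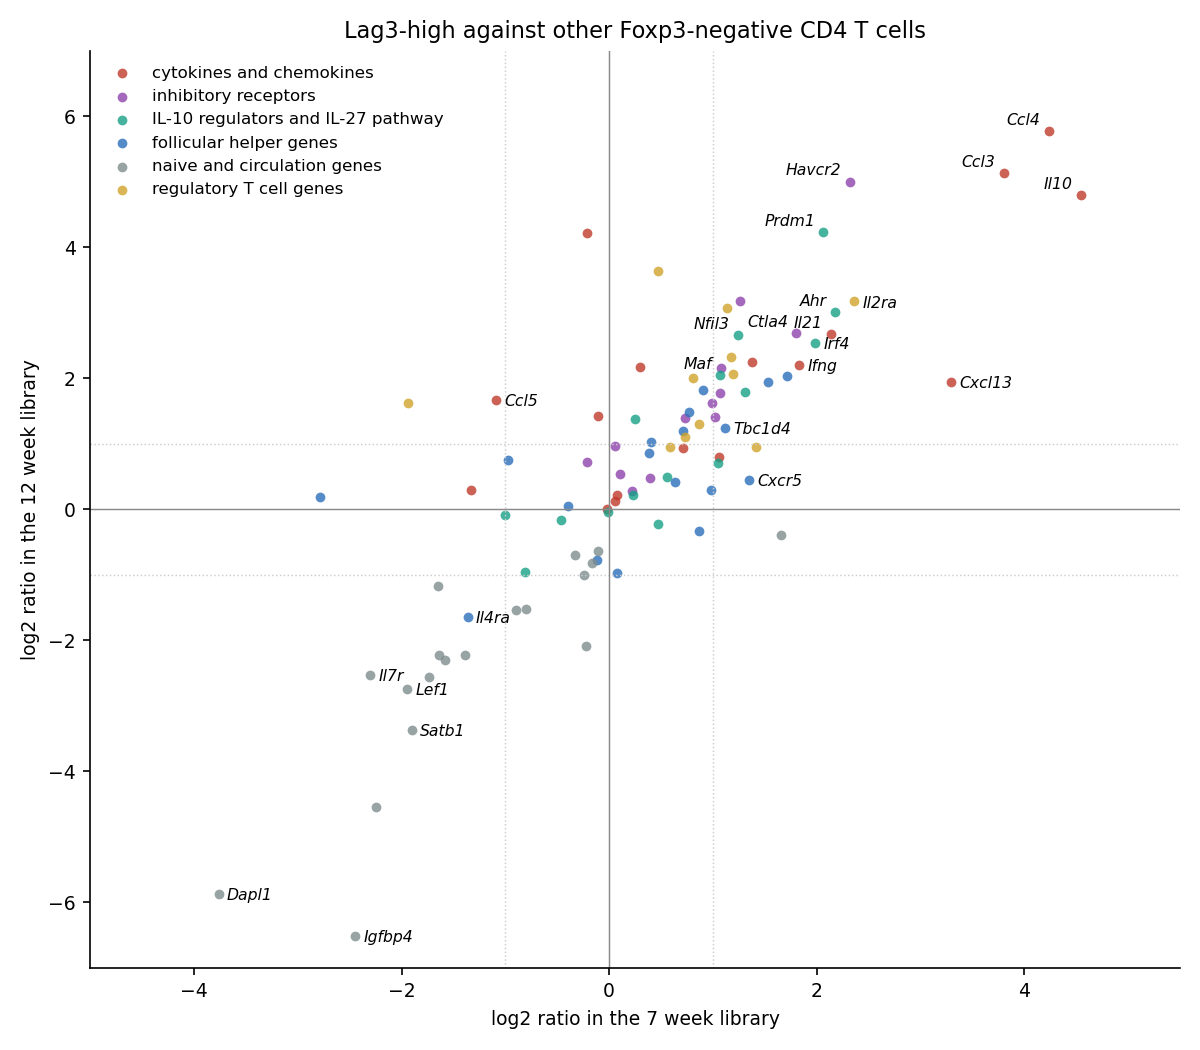
Log2 ratio of members over other Foxp3-negative CD4 T cells in the 7 week (x) and 12 week (y) library for genes of 6 lists with at least 30 UMIs, each point a gene and dotted lines at 2-fold. Il10, Ccl3, Ccl4, Havcr2 and Prdm1 lie at the upper right, 11 of 19 naive and circulation genes lie beyond 2-fold at the lower left, and Ccl5 lies on opposite sides in the 2 libraries.

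Against Foxp3-positive CD4 T cells of the same gate (41 and 54 cells), members were set apart by Il21 and Ifng. Of 6451 genes 0.667% were higher and 1.05% lower. None of 15 measured genes of the Il10 regulator list was counted on either side. Of 12 inhibitory receptors only Cd200 was higher and none lower, with a median log2 ratio of -0.24 and 0.27. Il21 had 1 UMI in the 7 week regulatory cells, a ratio of 30.2 (5.22 to 1211), and none at 12 weeks, where members were at least 14.6-fold higher, taking 3 counts for the group as the floor (the exact interval began at 11.7). Ifng was 12.8 times (6.63 to 28.4) and 16.7 times (7.57 to 45.8) as high in members, and Cd40lg, the ligand that licenses B cells, 5.94 and 8.14 times. Tnfsf8, which encodes CD30 ligand, was 38.1 and 9.55 times as high, and Tbc1d4 4.01 and 3.09 times. Ikzf2, which encodes Helios, was lower in members, at 294 against 1060 CPM and 325 against 1270 CPM, as were Il2ra, Ikzf4, Itgae, Tnfrsf4 and Tnfrsf18. Without the barcodes holding other-cell UMIs the 7 week Foxp3-positive cells had no Il21 or Tnfsf8 UMI, which made members at least 6.77-fold and 18.6-fold higher against the same floor, and the 7 week ratios of Ifng and Cd40lg were 22.8 and 3.15.

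Il10 did not separate the 2 classes. At 7 weeks Foxp3-positive cells had 157 Il10 UMIs in 14 of 41 cells (466 CPM, 396 to 545), above the 103 CPM of members, and at 12 weeks 27 UMIs in 11 of 54 cells (77.4 CPM, 51.0 to 113), below the 148 CPM of members. The ratio of members to Foxp3-positive cells was 0.221 (0.164 to 0.294) and 1.91 (1.26 to 2.99). Of all Il10 UMIs in the kept cells members held 22.4% at 7 weeks and 49.5% at 12 weeks, and Foxp3-positive cells 50.2% and 8.79%. B cell markers summed to 9477 CPM and macrophage and monocyte markers to 2949 CPM in the 7 week Foxp3-positive cells, against 1998 and 491 CPM in members. Without barcodes holding 10 or more UMIs of the 34 other-cell genes, which took out 12 of 41 Foxp3-positive cells at 7 weeks, that ratio was 0.345.

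The Izumo1r Tbc1d4 Tnfsf8 CD4 T cells (103 and 199 cells), a subset of the other CD4 T cells with at least 3 UMIs of these genes together, were compared next. Of 7432 genes 0.417% were higher in members and 0.161% lower. Of 17 cytokine and chemokine genes 6 were higher (Il10, Il21, Ifng, Ccl1, Ccl3 and Ccl4). Il10 was 24.0 times (7.88 to 119) and 13.9 times (7.74 to 27.5) as high, whereas Il21 was 2.61 times (1.61 to 4.38) and 3.01 times (2.14 to 4.30). Pdcd1 was at 372 against 286 CPM and at 399 against 274 CPM, short of 2-fold in both libraries. Prdm1, Ahr, Irf4, Ctla4, Havcr2, Il2ra, Ccr2, Nkg7 and Cxcr6 were higher in members, and Il7r, Klf3 and Sostdc1 lower. Without the barcodes holding other-cell UMIs Ccl1 had 0 UMIs in members and 18 in this subset at 7 weeks. The median over all genes was 0.04 and 0.05 log2 units.

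Lag3-high CD8 T cells (38 and 109 cells) were chosen by the same Lag3 floor, and their Ifng level was near that of members. Of 6795 genes 1.74% were higher in members and 1.04% lower. Ifng was at 342 CPM in members against 321 CPM at 7 weeks (ratio 1.07, 0.839 to 1.36) and 287 against 232 CPM at 12 weeks (1.24, 1.02 to 1.49). Pdcd1 was at 0.890 times (0.717 to 1.11) and 1.12 times (0.962 to 1.31). Il10 and Il21 were at 2 and 1 UMIs in the CD8 cells of either library. Maf was 5.29 times (3.31 to 8.96, or 15.8 without the barcodes holding other-cell UMIs) and 38.0 times (21.1 to 76.7) as high in members, and Icos, Cd40lg, Tnfsf8, Ctla4 and Ahr were also higher. Ccl5 was at 0.0243 and 0.171 times, and Gzmb, Klrd1, Klrk1 and Klrc1, genes of killer cells, were lower in members along with Eomes, Runx3 and Nkg7. Ccl3 and Ccl4, higher in members than in other CD4 T cells, were counted on neither side here. Without thinning, 10 of 38 and 39 of 109 CD8 cells had no Ccl4 UMI, against 64 of 83 and 115 of 169 members. For Ccl3 these numbers were 26 and 55 CD8 cells, against 72 and 136 members.

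Members with an Il10 UMI differed from those without in more than Il10. Of 5440 genes 40 were higher (0.735%, Il10 itself among them) and 21 lower (0.386%), with 18 and 4 when cells were thinned to 2000 UMIs. Without the richest cell of each group 23 were higher. TMM scaling gave 33 and 32, and it lowers every ratio by 0.28 log2 units at 7 weeks and 0.06 at 12 weeks. Ccr2, a chemokine receptor of tissue-infiltrating cells, was at 325 against 38.5 CPM at 7 weeks and 270 against 51.8 CPM at 12 weeks, ratios of 8.44 (4.66 to 15.4) and 5.21 (3.45 to 7.94). Entpd1, which encodes the ectoenzyme CD39, was 7.19 times (1.92 to 26.9) and 6.18 times (2.88 to 13.9) as high, from 6 UMIs in 3 members with Il10 at 7 weeks and 20 in 14 at 12 weeks. Prdm1 was 4.19 and 2.53 times as high, Ikzf3 4.16 and 2.38 times and Cxcr6 2.50 and 2.55 times. Ctla4 was at 505 against 177 CPM and 778 against 244 CPM. Ikzf2 (638 against 246 CPM and 536 against 268 CPM) and Tnfrsf18 (626 against 174 CPM and 636 against 272 CPM), genes high in the Foxp3-positive cells, were higher too, the first of them not past 2-fold in both libraries under TMM scaling and at 1.31 times at 12 weeks without the barcodes holding other-cell UMIs.

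The lower genes named next were picked after their values were seen. They were 1 of 12 measured naive genes (Tcf7), 2 of 16 follicular helper genes (Tox2 and Id3), 2 of 15 costimulatory genes (Tnfsf8 and Tnfsf11), 2 of 17 cytokine genes (Xcl1 and Cxcl13) and 1 of 15 receptor-induced factors (Egr2). Tcf7, which encodes TCF-1, was at 72.2 against 296 CPM at 7 weeks and 13.7 against 169 CPM at 12 weeks. Tox2 was at 0.240 and 0.314 times, Tnfsf8 at 0.127 and 0.343 times and Tnfsf11, which encodes RANK ligand, at 0.284 and 0.197 times (0.0394 at 12 weeks without the barcodes holding other-cell UMIs, from 1 UMI). Id3, Egr2, Cxcl13 and Xcl1 had no UMI in the 13 members with Il10 at 7 weeks and 1 or 2 UMIs in the 34 at 12 weeks. Among the 70 and 135 members without Il10 some of these genes were in few cells too. Cxcl13 was in 3 and 5 of them, with 70 of its 72 UMIs at 7 weeks in 1 cell. Xcl1 was in 13 and 16, and Id3 in 21 and 24. Pdcd1 did not separate members with Il10 from those without, at 0.753 times (0.473 to 1.15) and 1.15 times (0.906 to 1.45). Ly6a was 14.5 and 5.66 times as high, but 54 of its 109 UMIs at 7 weeks and 97 of 200 at 12 weeks were in 1 cell, and the ratios were 7.82 and 0.534 without the barcodes holding other-cell UMIs. Il21 was 2.34 times (1.22 to 4.28) as high with Il10 at 7 weeks and 1.17 times (0.757 to 1.77) at 12 weeks, the latter 0.683 without the richest cells. Ifng was at 0.460 times (0.247 to 0.788) and 1.09 times (0.817 to 1.44), or at 0.184 and 0.546 without the richest cells. By rank, Il10, Fgl2, Entpd1, Ly6a, Ccr2 and Rnase4 led the higher genes and Xcl1, Nrgn, H2-DMb2, Cxcl13, Id3 and Nrn1 the lower ones. Fgl2 had 7 UMIs in 4 members with Il10 at 7 weeks and 15 in 5 at 12 weeks, 10 of the latter in 1 cell. The summed regulatory T cell list was at 3863 and 4373 CPM in members with Il10 and at 1426 and 2171 CPM in those without. Macrophage and monocyte markers summed to 1300 CPM with Il10 and 378 CPM without at 7 weeks, and to 408 and 1150 CPM at 12 weeks. The dendritic cell markers summed to 349 CPM with Il10 and 68.6 CPM without at 7 weeks, and to 0 and 6.17 CPM at 12 weeks. The part of both lists in the split was not tested.

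**Figure D5:**
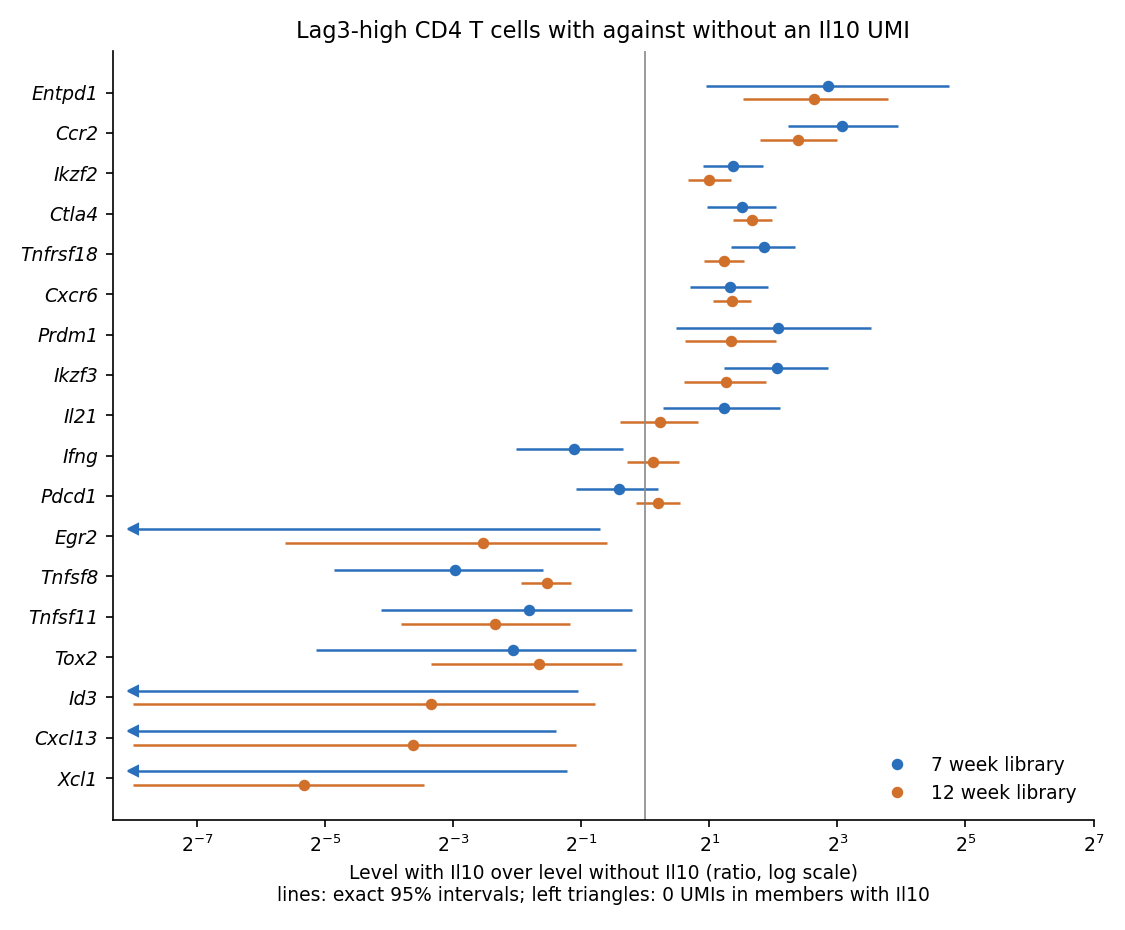
Ratio (log scale) of the level in members with an Il10 UMI over members without, for 18 list genes picked after their values were seen, with exact 95% intervals cut at the left edge where they run past it, and left triangles where members with Il10 had 0 UMIs. Ccr2, Entpd1 and Ctla4 lie to the right of 1 in both libraries, Tnfsf8 and Xcl1 to the left, and Pdcd1 spans 1.

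Splitting the members by Il21 or by Ifng, which was done after the Il10 split had been seen, gave shorter lists. By Il21, 0.0919% of 5440 genes were higher and 0.0368% lower. Egr2 was 2.52 times (1.33 to 4.90) and 2.22 times (1.17 to 4.32) as high in members with Il21, and Tnfrsf9, which encodes 4-1BB, was at 0.185 and 0.128 times. By Ifng, 0.221% were higher and 0.0919% lower. Dusp4 was 4.11 times (1.87 to 10.3) and 15.9 times (5.14 to 79.4) as high in members with Ifng, Nkg7 2.09 and 3.05 times, Ccl5 2.48 and 4.73 times and Ccl4 6.89 and 5.56 times. Ccl3 and Ccl4 were higher in members with either cytokine, the Il21 ratios being 23.3 and 2.15 for Ccl3 and 24.4 and 3.11 for Ccl4. The 7 week values rest on the cell with 450 Ccl4 UMIs, which also held 5 Il21 and 59 Ifng UMIs.

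Between the ages, which cannot be told apart from the libraries here, 2.37% of 5440 genes were past 2-fold higher in 12 week members and 2.94% lower, with the interval excluding 1. Lag3 itself, the gene of the rule, was at 854 CPM in the 7 week and 1625 CPM in the 12 week members. The floor of 3 UMIs fell on cells of different depth (medians of 6834 and 5043 UMIs), so these levels are given as a description only. Il10 was at 1.44 times (1.08 to 1.94) its 7 week level, but at 0.990 times when each member's CPM was averaged and at 2.001 times without the richest cell of each library. Il21 was at 1.40 times (1.02 to 1.93) and Ifng at 0.838 times (0.703 to 0.999), or 1.03 without barcodes holding any of 8 other-cell markers. The direction of both the Il10 and the Ifng difference therefore depended on how the cells were summed or chosen.

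Of 14 measured genes of the Il10 regulator list 1 was past 2-fold higher at 12 weeks (Prdm1, 2.58 times, 1.54 to 4.52) and 1 past 2-fold lower (Irf8, 0.436 times, 0.303 to 0.622), with a median log2 ratio of 0.11. Irf8 was at 0.853 times without the barcodes holding other-cell UMIs. Maf was at 1.64 times (1.40 to 1.93), short of 2-fold. In the other CD4 T cells the 12 week level was 0.831 times (0.695 to 0.997) the 7 week level for Maf and 0.572 times (0.203 to 1.67) for Prdm1. Of 14 Th1 genes 5 were past 2-fold higher at 12 weeks (among them Il18r1, Nkg7, Cxcr6 and Id2). Of 15 stress and dissociation genes 5 were lower at 12 weeks (Fosb, Jund, Hspa1b, Hspa1a and Ier3), and of 15 receptor-induced factors Nr4a1, Nr4a2 and Nr4a3 were lower, at 0.444, 0.384 and 0.270 times. In other CD4 T cells these 3 were at 0.422, 0.463 and 0.458 times, Jund at 0.395 and Hspa1b at 0.387 times, whereas Hspa1a was at 0.888 times there and 0.473 times in members. Whether the age ratios differ between members and other CD4 T cells was not tested. Acinar transcripts, which T cells do not make, went from a summed 27.9 CPM to 260 CPM in members, and from 25.0 to 313 CPM in other CD4 T cells. Their part in the age differences was not tested.

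Ranked by the interval bound nearest 1, Spp1, Lyz2, Ccl5, Cxcl9, Gzmb and Gbp2b led the genes higher at 12 weeks, and Slpi, Ier5, Rnase6, Glrx5, Cd74 and H2-Eb1 those lower. Spp1, the gene of osteopontin, had 0 UMIs in 7 week members and 181 in 15 members at 12 weeks. Gzmb had 1 UMI and then 44 UMIs in 18 members, 20 of them in 1 cell. Ccl5 had 215 UMIs in 50 members and then 2443 in 85, a ratio of 7.52 (6.54 to 8.68), with 588 in 1 cell. Several of these values rested on single barcodes. Of the 12 week UMIs 486 of 515 for Lyz2 and 58 of 61 for Cxcl9 were in 1 cell, and of the 7 week UMIs 40 of 48 for Slpi, 18 of 31 for Rnase6, 289 of 628 for Cd74 and 129 of 282 for H2-Eb1. Without the richest cell of each library Slpi was at 0.569 times and Lyz2 at 2.76 times, and Cxcl9 had 1 and 3 UMIs. Without the barcodes holding 10 or more other-cell UMIs the ratio was 0.946 for Cd74, 0.754 for H2-Eb1, 0.844 for Slpi, 1.98 for Lyz2 and 12.1 for Gzmb, and Rnase6 had 2 and 0 UMIs. Ier5, an immediate early gene, was spread over 57 and 28 members and was lower to a similar degree in members (0.170 times) and in other CD4 T cells (0.163 times). For the genes higher in 12 week members, the ratio in other CD4 T cells was 28.8 (4.99 to 1157) for Spp1 and 2.59 for Gzmb. It was 1.10 for Ccl5, 0.883 for Lyz2, 0.808 for Gbp2b and 0.0416 for Cxcl9. For the lower genes it was 2.41 for Slpi, 0.218 for Rnase6, 0.200 for Glrx5, 0.134 for Cd74 and 0.172 for H2-Eb1.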

How the data were processed

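The authors deposited UMI counts for every gene and barcode of the 7 week and the 12 week library, made with Cell Ranger 1.3.1 on mm10 per the submitters' processing notes. Its cell calling and annotation version remain not given in the sources used here. These counts were whole numbers over 27998 genes.

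Barcodes under 200 genes or over 10% mitochondrial UMIs were left out (4 and 8, leaving 1109 and 2804). Classes were cut from raw UMIs: the rule in the opening for members, Cd79a of at least 2 without CD3 UMIs for B cells, and at least 3 Lag3 and 1 Cd8a or Cd8b1 UMI without Cd4 for Lag3-high CD8 T cells. No doublet caller was run, and doublets were not removed beyond the limits on Cd8a, Cd8b1 and Cd79a. UMIs were summed per class and library and compared as CPM ratios with exact conditional binomial intervals. Log2 ratios had 0.5 UMI added. Shares have exact Clopper-Pearson intervals and CPM exact Poisson intervals. With 1 library per age the ages could not be tested. The classes, measured in both libraries, could have been compared with library as a block, but they were cut from the counts being compared, so no test was run and no p-value was computed. The members and the 23 gene lists (314 genes, 1 not listed in the matrices) were chosen with earlier results of these data known. Beyond list genes, the text names the 15 highest and 10 lowest genes against other CD4 T cells with both intervals excluding 1, ranked by the smaller of the 2 absolute log2 ratios, and likewise 6 on each side for the Il10 split and, by the interval bound nearest 1, for age, leaving out genes of the rule, mitochondrial, ribosomal protein, haemoglobin, predicted and pancreatic list genes. Of list genes, those named were picked after their values were seen. Alternatives covered the Lag3 floor, comparator, depth, scaling, fold, quality limits, richest cells and other-cell UMIs, the last added after the data were seen. Python 3.11.15, numpy 2.4.6, scipy 1.17.1, pandas 2.3.3, matplotlib 3.10.9, and R 4.3.3 with edgeR 4.0.16 (TMM factors only) were used, and the scripts were tested on simulated data. A few list genes are not reported here.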

Additional observations from a re-analysis of the deposited data

Results flagged for a closer look

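In 13 comparisons of list genes the ratio lay on opposite sides of 1 in the 2 libraries, with both intervals excluding 1. Ccl5 was among them against both classes named below. In each case the difference between the libraries was not tested. Against other Foxp3-negative CD4 T cells, Ccl5, the chemokine of effector T cells, was at 0.467 times in 7 week members and 3.19 times in 12 week members. Id2 was at 0.653 and 1.66 times, Tmem176b at 0.510 and 2.13 times, Tmem176a at 0.456 and 2.88 times, and Isg15, an interferon response gene, at 0.580 and 1.59 times. The remaining 3 belong to macrophage and monocyte genes: Fcer1g was at 0.373 and 1.86 times, Ctss at 0.794 and 1.38 times and Lyz2 at 0.0370 and 1.79 times, and 486 of the 515 Lyz2 UMIs of 12 week members were in 1 barcode. Both Tmem176 genes are among the 3 measured Th17 genes. The 12 week median log2 ratio of that list, 1.09, was -0.68 without the richest cell of each group. It was -0.37 without barcodes holding 10 or more UMIs of the other-cell lists.

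Against Foxp3-positive CD4 T cells, on the cytokine and the Il10 regulator lists, members were lower at 7 weeks and higher at 12 weeks in 5 genes. Il10 was at 0.221 and 1.91 times, Ccl5 at 0.339 and 5.92 times, Ccl4 at 0.739 and 3.40 times, Prdm1 at 0.376 and 2.51 times and Maf at 0.711 and 1.68 times. The Foxp3-positive class held 41 and 54 cells, and in the 7 week library its macrophage and monocyte markers summed to 2949 CPM against 491 CPM in members. Without barcodes holding 10 or more UMIs of the other-cell lists the 7 week Il10 ratio was 0.345, and for the other 4 genes their part was not tested.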

How the results depend on the processing

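Of 1317 values under alternatives, 1193 stayed within their interval or within 1.5 times the main count. With members set at 2 or more Lag3 UMIs the shares were 37.3% and 30.1%, and the 12 week Il10 ratio was 59.6 over other CD4 T cells and 35.7 over the Izumo1r class. With 5 or more the shares were 19.7% and 16.7%, and 12 genes were lower in the Il10 split. Against CD4 T cells with 0 Lag3 UMIs the Il21 ratios were 12.7 and 15.1, the Ifng ratios 5.01 and 5.75, the 12 week Il10 ratio 75.6, and 188 genes were higher. With cells thinned to 2000 UMIs, no Il21 UMI was left in Foxp3-positive or CD8 cells and no Il10 UMI in 7 week CD8 cells. With 3 counts as the floor, Il21 in members was then at least 2.96 and 5.43 times the Foxp3-positive level and 2.75 and 11.0 times the CD8 level, and Il10 at least 3.36 times. Il21 at 12 weeks was at 9.57 times the other CD4 level, Il10 at 7 weeks at 0.340 times Foxp3-positive cells, 24 genes were lower than in other CD4 T cells, and the Il10 split had 18 higher and 4 lower. Shares of members with a UMI were 15.7% and 20.1% (Il10), 42.2% and 40.2% (Il21) and 48.2% and 49.1% (Ifng) without thinning. At 1000 UMIs they were 19.3% and 19.5% for Ifng and, at 12 weeks, 6.51% for Il10 and 11.8% for Il21. As a mean over cells, Il10 at 7 weeks was at 0.396 times Foxp3-positive cells and its age ratio was 0.990, on the other side of 1.

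Without the richest cell of each group, the Ifng ratio in the Il10 split was 0.184 and 0.546 and the 12 week Il21 ratio 0.683, Il10 at 12 weeks was 28.0 times the Izumo1r class, its age ratio 2.001, and 23 genes were higher in the split. Without barcodes holding any of 8 other-cell markers, Il21 at 12 weeks was at least 9.80 times Foxp3-positive cells (0 UMIs), Ifng 5.69 times other CD4 and 1.66 times CD8 cells, and the Ifng age ratio 1.03, on the other side of 1. Without those holding 10 or more other-cell UMIs, an alternative chosen after seeing the data, Il10 at 7 weeks was 0.345 and Il21 at 12 weeks at least 10.6 times Foxp3-positive cells. In these 3 settings in turn, the 7 week C3 ratio was 1.81, 1.92 and 1.94. Members had 0 C3 UMIs at 7 weeks in the main setting too, and with 0.5 UMI added these ratios show no C3 in members. In the same settings the 12 week Th17 median log2 ratio was -0.68, -0.30 and -0.37 (1.09 otherwise, -1.12 with 5 or more Lag3 UMIs). The 12 week endocrine median was 0.029, 0.45 and 0.086 (-2.69 otherwise). The 7 week Ccl1 ratio, with 0 UMIs in members and 0.5 UMI added, was 0.0982 without the richest cell and 0.0524 without the barcodes of 10 or more UMIs. TMM scaling left 68 genes higher than in other CD4 T cells and 32 lower in the Il10 split. At 1.5-fold the counts were 233 higher and 98 lower, and 66 and 35 in the split. At 3-fold they were 35 and 26, with 13 higher in the split, and with at least 100 UMIs 21 were higher there. The cause of these changes was not tested. The ages could not be tested because each had 1 library. The classes, measured in both libraries, could have been paired by library but were compared without a test, since the rule cut them from the same counts. Depth limits genes with few UMIs, and differences between mice were not measured.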
